A study of Homo sapiens with 12 samples.

Results

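The tensin family has 4 members, TNS1, TNS2, TNS3 and TNS4, and all 4 were found by symbol among the 39368 gene symbols counted in CAL27 and HSC3 cells. The family was chosen by the measured fall of TNS1 with DOX in HSC3 cells, one of the largest there, so the HSC3 change of TNS1 is described here without a test, while TNS2, TNS3 and TNS4 entered by family name alone. Both lines are established, HPV-negative HNSCC lines from carcinomas of the tongue. The cells carried a vector that expresses an shRNA against MUC1 when doxycycline (DOX) is added. RNA-seq was performed on 3 libraries of each line after 7 days in vehicle (0.1% DMSO) and 3 after 7 days in 500 ng/mL DOX, 12 libraries in all. No library from DOX-treated cells with a control shRNA was analysed here, so MUC1 silencing and anything else that DOX or the shRNA does cannot be told apart.

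Tensins are cytoplasmic adaptors of integrin adhesions, the sites where cells hold the extracellular matrix. TNS1, TNS2 and TNS3 link the cytoplasmic tails of integrin β subunits to actin filaments and carry a C-terminal SH2 and PTB region. TNS4, also called CTEN, is the short member that keeps the C-terminal region but lacks the actin-binding N-terminal part, and it is an epithelial gene raised in several carcinomas. EGF is known to lower TNS3 and raise TNS4 in breast epithelial cells, an exchange tied to cell migration.

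Of the 4 genes, 3 lie on the minus strand of GRCh38 (GENCODE v44). TNS1 spans chr2:217799588-218033982 with 47 merged exons, TNS3 spans chr7:47275154-47582558 with 43, and TNS4 spans chr17:40475828-40501623 with 13. TNS2 is on the plus strand at chr12:53046969-53064379 with 26 merged exons. No other annotated gene overlaps the exons of TNS3 and TNS4, whereas 1.09% of the exon bases of TNS1 and 5.58% of those of TNS2 lie under genes of the other strand. The deposited table holds a row for the antisense gene TNS1-AS1, which had 0 to 16 counts in CAL27 libraries and 0 in every HSC3 library.

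Gene counts do not show which start site a transcript used, and TNS1 has several. RefSeq lists 11 promoter windows for the tensins on GRCh38.p14, 5 for TNS1, 3 for TNS2 and 3 for TNS3, each of 300 bases (250 before the start to 50 after it). TNS4 was not matched. Both strands were searched for the AP-1 motif TGANTCA, the STAT motif TTCNNNGAA (GAS), the TEAD motif GGAATG and the CArG box of SRF. Among 35116 promoter windows, 7.71% hold the AP-1 motif, 7.66% the STAT motif, 14% the TEAD motif and 1.29% a CArG box. The only matches in the 11 tensin windows were 1 TEAD motif in each of 2 TNS1 windows, both at starts inside the gene. They are shown 5′ to 3′ on the minus strand, that of the gene, with the TEAD letters or their reverse complement in capitals, because TNS1 changed most of the 4 genes.
TNS1, chr2:217944021-217944320: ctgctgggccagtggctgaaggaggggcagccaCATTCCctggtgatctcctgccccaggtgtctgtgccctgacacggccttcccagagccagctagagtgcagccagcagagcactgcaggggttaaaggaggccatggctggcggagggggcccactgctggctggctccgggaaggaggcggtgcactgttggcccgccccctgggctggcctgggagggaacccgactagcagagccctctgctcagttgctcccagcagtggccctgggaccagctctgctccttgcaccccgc
TNS1, chr2:217920187-217920486: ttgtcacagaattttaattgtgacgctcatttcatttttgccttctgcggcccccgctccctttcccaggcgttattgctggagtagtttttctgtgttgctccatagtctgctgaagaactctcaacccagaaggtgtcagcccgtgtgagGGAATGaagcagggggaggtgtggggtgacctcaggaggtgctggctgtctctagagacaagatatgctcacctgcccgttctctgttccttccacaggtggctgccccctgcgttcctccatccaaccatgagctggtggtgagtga

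Library totals were 89730914 to 169065103 counts, and MUC1, the silenced gene, checked the labels. Its counts were 8062, 5753 and 6589 in the vehicle libraries and 306, 285 and 419 in the DOX libraries in CAL27 cells, a log2 change of -4.21 (standard error, SE, 0.067). In HSC3 cells they were 191, 162 and 196 in the vehicle libraries and 46, 36 and 16 in the DOX libraries, a log2 change of -2.88 (SE 0.38). With vehicle, HSC3 cells had 31.65-fold less MUC1 RNA than CAL27 cells. The fitted MUC1 fall was smaller in HSC3 than in CAL27 cells by 1.36 on the log2 scale (edgeR adjusted p = 0.001). Several counts stood for each sequenced molecule: the estimate was 2.45 to 3.33 counts per molecule in CAL27 libraries, 4.18 to 7.43 in HSC3 vehicle libraries and 8.93 to 17.2 in HSC3 DOX libraries. By that estimate MUC1 had only 1.42 to 4.03 molecules per library in HSC3 DOX libraries. The MUC1 fall in HSC3 cells rests on these few molecules, so it cannot decide whether silencing was weaker there than in CAL27 cells. All 8 squamous epithelial markers were above 1 CPM in every library. Their summed level was 7004 to 7180 CPM with vehicle and 3250 to 3448 with DOX in CAL27 cells, and 5389 to 6042 against 2359 to 2873 in HSC3 cells, and its part in the change of the tensins was not tested. KRT5 made up the larger share of that sum in CAL27 cells, and the list did not move one way, since EPCAM was at 135 to 140 CPM with vehicle and 161 to 192 with DOX in CAL27 cells and at 48.6 to 53.9 and 84.1 to 101 in HSC3 cells, while CDH1 overlapped between the CAL27 groups. The 7 fibroblast markers summed to 14.7 to 15.7 CPM with vehicle and 11.01 to 11.6 with DOX in CAL27 cells and to 3.85 to 4.63 and 5.24 to 8.42 in HSC3 cells, mostly COL1A1, with COL3A1 at 0. The 5 smooth muscle markers summed to 15.3 to 17.3 and 15.7 to 16.2 CPM in CAL27 cells and to 29.98 to 35.2 with vehicle and 20.7 to 28.7 with DOX in HSC3 cells, mostly SMTN, with DES at 0. The 4 endothelial markers summed to 16.6 to 16.9 and 9.80 to 13.1 CPM in CAL27 cells, mostly CDH5, and to at most 0.480 in HSC3 cells, and the 5 leukocyte markers to at most 0.637. The part of the lists that moved with DOX in the change of TNS1 was not tested.

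All 4 tensins were lower with DOX in both lines, and for each gene every DOX library lay below every vehicle library. For TNS1 in HSC3 cells this goes with the choice of the family and is no support. In CAL27 cells each of the 4 passed the test at an edgeR adjusted p under 0.05, where 21.8% of the 19239 genes tested were lower by that rule and 26.3% had DOX libraries wholly below the vehicle libraries. In HSC3 cells TNS2, TNS3 and TNS4 passed, where 15.4% of the 18021 genes tested were lower and 22.8% did not overlap in that direction. In bulk RNA, fewer cells that express a gene and less of its RNA per cell cannot be told apart. The falls differed greatly in size. TNS1 fell most in CAL27 cells, by 5.10-fold, while the other 3 fell by 1.34-fold to 1.45-fold there. At a fold change above 2, only TNS1 was called in CAL27 cells, where 5.11% of genes were called lower. In HSC3 cells TNS2 was called, where 4.4% of genes were called lower, and TNS1, by which the family was chosen, was not tested. The log2 change of DOX over vehicle had a median over all genes tested of -0.0052 in CAL27 and -0.0097 in HSC3 cells. With 3 libraries in each group, and nothing in the labels beyond triplicate culture, these p values measure the spread between these libraries.

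**Figure D1:**
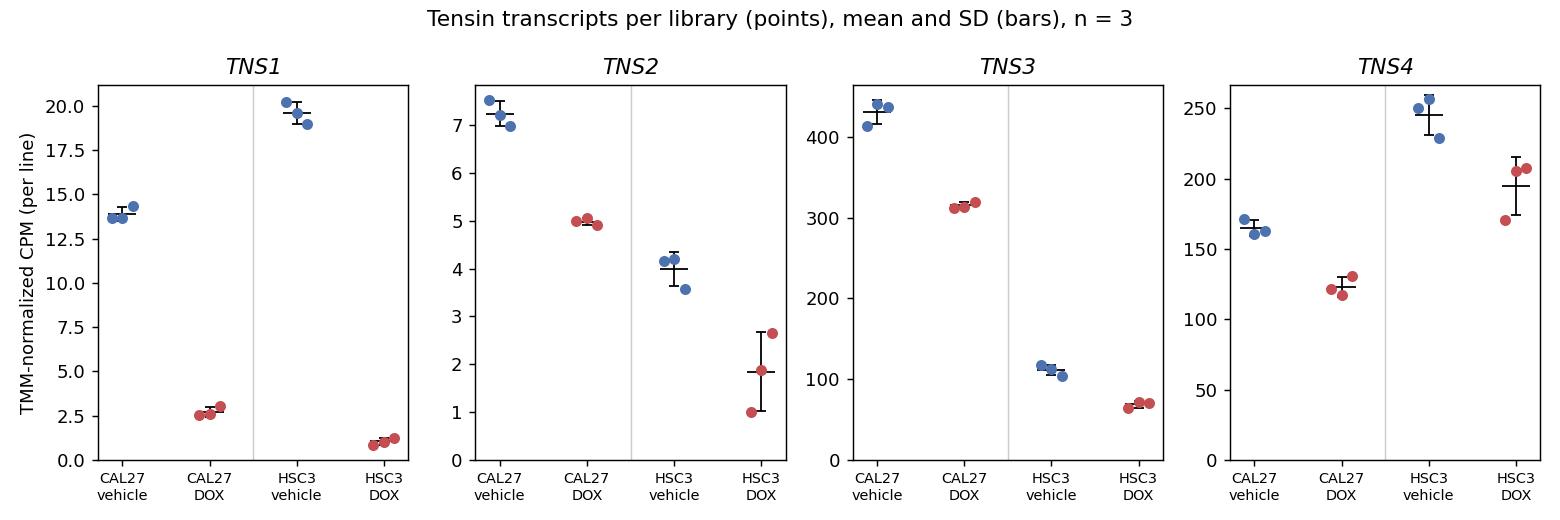
TMM-normalized CPM of each tensin (y axis, from 0, normalized within each line) by cell line and treatment (x axis); points are the 3 libraries of a group, black bars the mean ± SD. In every panel the DOX points (red) lie below the vehicle points (blue) of the same line, with the largest relative gap for TNS1. The TNS1 gap in HSC3 cells is the one by which the family was chosen.

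TNS1, the founding member, which lies in focal and fibrillar adhesions and is most abundant in muscle and other mesenchymal tissues, was a minor tensin in both carcinoma lines. In CAL27 cells its counts were 1728, 1335 and 1579 in the vehicle libraries and 241, 242 and 356 in the DOX libraries. These are 13.7, 13.7 and 14.4 CPM in the vehicle libraries and 2.51, 2.596 and 3.05 CPM in the DOX libraries, and the DOX libraries all sit far below the vehicle libraries. The level went from 13.9 ± 0.393 CPM (SD, n = 3) to 2.72 ± 0.286 CPM (SD, n = 3). The CAL27 log2 change was -2.35 (SE 0.091, 95% interval -2.54 to -2.16, edgeR adjusted p = 6.5e-14), which ranks TNS1 at 125 of 19239 genes by the size of its fall. This contrast was not used to choose the gene, and the fall kept to between -2.44 and -2.30 over its 12 alternatives.

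In HSC3 cells TNS1 had counts of 2555, 1783 and 2479 in the vehicle libraries and 140, 152 and 166 in the DOX libraries. In CPM the vehicle libraries were at 20.2, 19.6 and 18.96 and the DOX libraries at 0.849, 1.03 and 1.25. The mean went from 19.6 ± 0.626 CPM (SD, n = 3) to 1.04 ± 0.200 CPM (SD, n = 3), a log2 change of -4.24 (SE 0.16) or 18.9-fold. This is the value that chose the family, and no test of it is given. By the size of its fall it ranked at 58 of 18021 genes, a rank that follows from the choice and is no support. The DOX counts of TNS1 stood for an estimated 8.14 to 17.0 molecules per library, against 334 to 426 with vehicle, so the remaining level rests on few molecules. Dividing counts by the counts per molecule gave a log2 change of -4.21. The HSC3 fall was larger than the CAL27 fall by 1.89 on the log2 scale (SE 0.17), a description for the same reason. TNS1 was higher in HSC3 than in CAL27 cells with vehicle, by 0.77 on the log2 scale (SE 0.11) in the fit of all 12 libraries, and by 0.50 when library totals were used, and it was lower in HSC3 than in CAL27 cells with DOX.

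TNS2, also called C1-TEN for the C1 domain at its N terminus, is a tensin linked to dephosphorylation of IRS1. It fell by less than TNS1 and was a low-level gene in both lines. In CAL27 cells it was at 7.52, 7.22 and 6.99 CPM in the vehicle libraries and 4.99, 5.05 and 4.90 CPM in the DOX libraries. The DOX libraries are close together and lie well below the vehicle libraries. The CAL27 log2 change was -0.54 (SE 0.087, edgeR adjusted p = 3.5e-05), and the adjusted p was 0.11 in 1 fit of all 12 libraries, where the spread is shared with HSC3 cells. In HSC3 cells it was at 4.17, 4.21 and 3.57 CPM in the vehicle libraries and 1.01, 1.87 and 2.66 CPM in the DOX libraries, from counts of 527, 382 and 467 and of 166, 276 and 354. The 3 DOX libraries spread widely, and DOX replicate 1, the library with most counts per molecule, was the lowest, and the part of the counts per molecule in this was not tested. The HSC3 log2 change was -1.11 (SE 0.30, 95% interval -1.77 to -0.459, edgeR adjusted p = 0.016). It was -0.82 (edgeR adjusted p = 0.0031) without DOX replicate 1, which ends the call at a fold change above 2. Without vehicle replicate 1 or 2 its edgeR adjusted p was 0.068 and 0.064. The difference between the lines was -0.58 (95% interval -1.27 to 0.118, edgeR adjusted p = 0.25), so the data allow a larger fall of TNS2 in HSC3 cells without showing it, and without HSC3 DOX replicate 3 it was -0.91 (edgeR adjusted p = 0.029). With vehicle, HSC3 cells had less TNS2 than CAL27 cells (log2 difference -0.59, SE 0.23, edgeR adjusted p = 0.034). That difference no longer passed without any 1 of the 6 vehicle libraries (edgeR adjusted p = 0.056 to 0.10). Over all genes tested, 20.6% passed for a difference between the lines.

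TNS3, which is abundant in epithelia and is known to bind integrin tails, EGFR and FAK, was the most counted tensin in CAL27 cells. It was at 414, 441.1 and 437 CPM in the vehicle libraries and 312, 314 and 319.5 CPM in the DOX libraries in that line. The groups are narrow and separate, and the log2 change was -0.45 (SE 0.038, edgeR adjusted p = 7e-09). In HSC3 cells TNS3 was at 117.5, 112 and 104 CPM in the vehicle libraries and 64.0, 71.98 and 70.7 CPM in the DOX libraries, a log2 change of -0.69 (SE 0.074, edgeR adjusted p = 4.7e-05). The HSC3 fall was larger than the CAL27 fall by 0.24 on the log2 scale (95% interval -0.405 to -0.076, edgeR adjusted p = 0.038). That difference is small and did not hold in 12 of its 17 alternatives, where the adjusted p was 0.051 to 0.14. The larger contrast for TNS3 was between the lines themselves, since HSC3 vehicle cells had 3.20-fold less of it than CAL27 vehicle cells (log2 difference -1.68, SE 0.056, edgeR adjusted p = 7e-13). By that rule 62.9% of 20694 genes differed between the vehicle-treated lines.

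TNS4 was the most counted tensin in HSC3 cells. Its levels there were 250.1, 256 and 229 CPM in the vehicle libraries and 171, 206 and 208 CPM in the DOX libraries. DOX replicate 1 was again the lowest, as it was for all 4 tensins in HSC3 cells. Without that library the HSC3 log2 changes were -4.11 for TNS1, -0.82 for TNS2, -0.64 for TNS3 and -0.25 for TNS4. For TNS4 the other 2 DOX libraries lie near each other and below the vehicle range. The HSC3 log2 change was -0.33 (SE 0.083, edgeR adjusted p = 0.011), with an adjusted p of 0.060 without vehicle replicate 1 and 0.063 without vehicle replicate 2. In CAL27 cells TNS4 was at 172, 161 and 163 CPM in the vehicle libraries and 122, 117 and 131 CPM in the DOX libraries. The groups do not overlap, and the CAL27 log2 change was -0.42 (SE 0.044, edgeR adjusted p = 1.4e-07). No difference in the effect of DOX between the lines was shown for TNS4, at 0.089 on the log2 scale (95% interval -0.130 to 0.309, edgeR adjusted p = 0.63). With vehicle, HSC3 cells had 1.80-fold more TNS4 than CAL27 cells (log2 difference 0.85, SE 0.073, edgeR adjusted p = 5.3e-08), the opposite of TNS3.

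**Figure D2:**
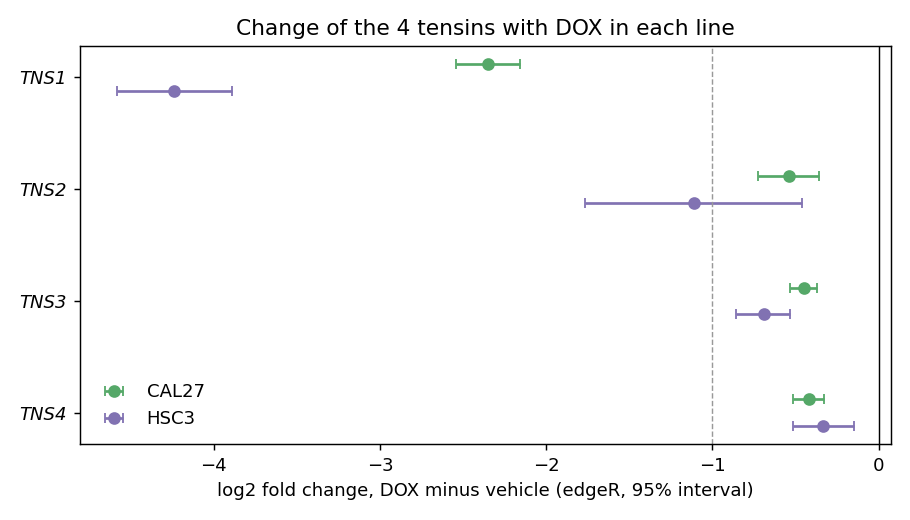
Log2 change of each tensin, DOX minus vehicle, in CAL27 (green) and HSC3 (purple) cells; points are edgeR estimates, bars their 95% intervals, the solid line marks no change and the dashed line a 2-fold fall. All 8 estimates lie left of 0, from -0.33 for TNS4 in HSC3 cells to -4.24 for TNS1 in HSC3 cells. The family was chosen by that TNS1 value, so its place left of 0 is no support and its bar is no test.

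For levels compared between genes, CPM from the normalization of all 12 libraries were divided by the merged exon length, 16.4 kb for TNS1, 7.96 kb for TNS2, 12.6 kb for TNS3 and 4.87 kb for TNS4. In CAL27 vehicle cells TNS3 was at 31.1 ± 0.825 and TNS4 at 30.7 ± 1.32 CPM per kb (SD, n = 3), and their ranges overlap. TNS2 at 0.825 ± 0.0350 and TNS1 at 0.771 ± 0.0221 CPM per kb (SD, n = 3) were far below them and also overlap. With DOX, TNS4 at 23.0 ± 1.35 and TNS3 at 22.8 ± 0.252 CPM per kb (SD, n = 3) still overlap. TNS1 at 0.151 ± 0.0156 CPM per kb (SD, n = 3) was then below TNS2 at 0.569 ± 0.00903 CPM per kb in every CAL27 library.

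In HSC3 vehicle cells the order was TNS4 at 55.3 ± 3.43, TNS3 at 9.73 ± 0.595, TNS1 at 1.32 ± 0.0428 and TNS2 at 0.549 ± 0.0506 CPM per kb (SD, n = 3), with no overlap between neighbours. With DOX, TNS4 was at 44 ± 4.41 and TNS3 at 6.04 ± 0.329 CPM per kb (SD, n = 3). TNS1 at 0.0701 ± 0.0131 CPM per kb (SD, n = 3) dropped under TNS2 at 0.255 ± 0.114 CPM per kb, so the order of these 2 genes was reversed. TNS1 made up 1.97% ± 0.0708 of the summed tensin level in HSC3 vehicle cells and 0.139% ± 0.0157 with DOX (SD, n = 3). In CAL27 cells its share was 1.22% ± 0.0338 with vehicle and 0.324% ± 0.0240 with DOX (SD, n = 3). The summed level was 63.4 ± 0.551 with vehicle and 46.5 ± 1.61 CPM per kb with DOX in CAL27 cells, and 66.9 ± 4.03 and 50.4 ± 4.85 CPM per kb in HSC3 cells (SD, n = 3). In this normalization the lines had summed vehicle levels whose ranges overlap but a different make-up, with TNS4 at 48.5% ± 1.67 in CAL27 and 82.7% ± 0.477 in HSC3 cells (SD, n = 3). The overlap depends on the normalization, since library totals lowered the HSC3 minus CAL27 vehicle difference of TNS4 from 0.85 to 0.58. They lowered that of TNS3 from -1.68 to -1.95, and the sum was not compared with them.

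**Figure D3:**
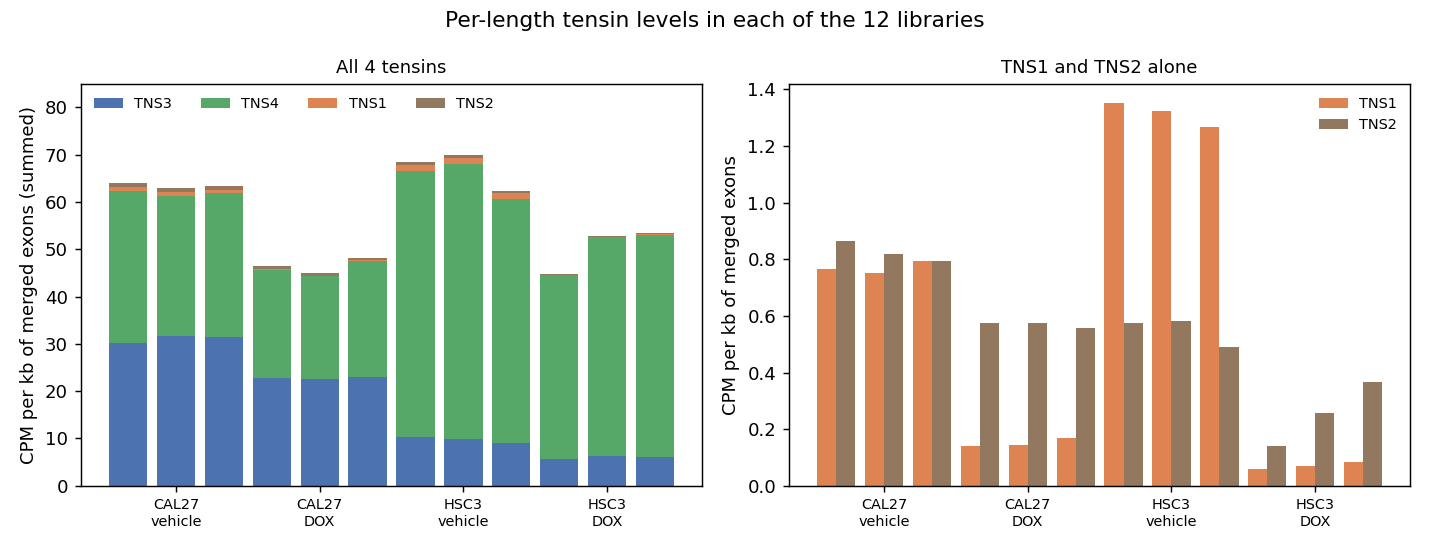
Levels of the 4 tensins in CPM per kb of merged exons in each of the 12 libraries, 1 bar per library, stacked for all 4 genes (left) and side by side for TNS1 and TNS2 on a smaller scale (right). TNS3 (blue) and TNS4 (green) make up nearly the whole family, and TNS1 (orange) goes from above TNS2 (brown) to below it with DOX in HSC3 cells.

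The balance of TNS4 to TNS3, which library scaling cannot alter, was compared because the pair is known to be exchanged by EGF. In HSC3 cells the log2 ratio of TNS4 to TNS3 counts was 1.09, 1.19 and 1.14 in the vehicle libraries and 1.41, 1.52 and 1.55 in the DOX libraries. Each DOX library had a higher ratio than each vehicle library, with a mean difference of 0.36 (p = 0.1, two-sided exact permutation test, the smallest p that 3 libraries against 3 allow). In CAL27 cells the ratio was -1.27, -1.46 and -1.42 in the vehicle libraries and -1.36, -1.42 and -1.29 in the DOX libraries. These values overlap, with a mean difference of 0.028 (p = 0.7, same exact test) that changed sign when a single library was left out. Both genes fell in both lines, with fitted changes in HSC3 cells of -0.69 for TNS3 and -0.33 for TNS4.

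The proteins that tensins meet at adhesions were followed with a list of 20 partners, of which 19 were tested in each line; ITGB3 had 0 to 14 counts and was not tested. In CAL27 cells 10 of the 19 were higher and 5 lower at an adjusted p under 0.05, where 22.6% of all genes were higher and 21.8% lower. Their median log2 change was 0.19. In HSC3 cells 4 were higher and 7 lower, where 13% and 15.4% of all genes were, with a median of 0.070. Few moved by 2-fold. In CAL27 cells 1 was called higher and 0 lower, where 1.31% and 5.11% of all genes were. In HSC3 cells 1 was called higher and 1 lower, where 1.58% and 4.4% of all genes were. FN1, the fibronectin bound by α5β1 integrin in fibrillar adhesions, rose in HSC3 cells from 114 ± 1.73 to 531 ± 27.1 CPM (SD, n = 3), a log2 change of 2.22 (edgeR adjusted p = 1.5e-08), and was at 39.5 and 40.2 CPM in CAL27 cells (0.025, edgeR adjusted p = 0.73). The tensin-binding protein DLC1 was called higher in CAL27 cells at 1.29 (edgeR adjusted p = 0.046), but on counts of only 6 to 14 with vehicle and 20 to 23 with DOX. DESeq2 did not call it, and the edgeR call was lost without vehicle replicate 1 or 2 or without DOX library 4 or 5. It also rose in HSC3 cells, at 0.77 (edgeR adjusted p = 0.00015), from 27.2 ± 2.15 to 46.3 ± 4.37 CPM (SD, n = 3). Its relative STARD8 was called lower in HSC3 cells at -1.37 (edgeR adjusted p = 0.041), but its counts of 84, 173 and 332 with vehicle overlap those of 142, 94 and 62 with DOX, and the call was lost without vehicle replicate 2 or 3 or without DOX replicate 2 or 3.

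Some partners below 2-fold are named for their role, chosen after their values were seen. ITGB1, the β1 subunit of most matrix integrins, rose in CAL27 cells at 0.46 (edgeR adjusted p = 4.2e-09) and was at 1580 and 1583 CPM in HSC3 cells (0.0030, edgeR adjusted p = 0.98). ITGB5 rose in both lines, at 0.87 (edgeR adjusted p = 6e-12) in CAL27 and 0.35 (edgeR adjusted p = 0.014) in HSC3 cells. ITGB6, an epithelial integrin subunit, fell in both, at -0.69 (edgeR adjusted p = 4.5e-10) and -0.62 (edgeR adjusted p = 0.0028). PEAK1, a pseudokinase that binds TNS3, fell at -0.45 (edgeR adjusted p = 5.2e-07) and -0.46 (edgeR adjusted p = 0.0035). EGFR, the receptor of EGF, fell slightly in CAL27 cells at -0.21 (edgeR adjusted p = 0.00048) and had 0.10 in HSC3 cells (edgeR adjusted p = 0.23). IRS1 fell in both lines, at -0.23 (edgeR adjusted p = 5.7e-05) in CAL27 and -0.68 (edgeR adjusted p = 3.8e-05) in HSC3 cells.

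A wider list of 50 focal adhesion adaptors gave 48 tested genes in CAL27 and 46 in HSC3 cells. In CAL27 cells 22 were higher and 13 lower at an adjusted p under 0.05, where 22.6% and 21.8% of all genes were, with a median of 0.097. In HSC3 cells 7 were higher and 6 lower, near the 13% and 15.4% of all genes, with a median of 0.087. None was called higher at a fold change above 2 in either line by edgeR, and the calls lower were LIMS2 and TGFB1I1 in CAL27 cells and TGFB1I1 in HSC3 cells, where 5.11% and 4.4% of all genes were called lower. Without CAL27 DOX library 5 only 1 of the 2 CAL27 calls was left. TGFB1I1 (Hic-5), a paxillin relative of mesenchymal adhesions, was well counted in HSC3 cells alone, where it went from 19.2 ± 1.52 to 7.26 ± 0.738 CPM (SD, n = 3), a log2 change of -1.40 (edgeR adjusted p = 8.1e-06). In CAL27 cells it was at 0.803 CPM with vehicle and 0.322 with DOX (-1.29, edgeR adjusted p = 0.0055). LIMS2, a partner of the kinase ILK, was at 0.794 CPM with vehicle and 0.188 with DOX in CAL27 cells (-2.08, edgeR adjusted p = 5.8e-06). VCL, vinculin, named after its value was seen, rose in both lines, at 0.38 (edgeR adjusted p = 5.8e-08) in CAL27 and 0.32 (edgeR adjusted p = 0.00096) in HSC3 cells.

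The third list held 30 genes of MRTF and SRF signaling and of the contractile cytoskeleton, with 28 tested in CAL27 and 26 in HSC3 cells. In CAL27 cells 14 were higher and 8 lower at an adjusted p under 0.05, where 22.6% and 21.8% of all genes were, with a median of 0.18. In HSC3 cells 8 were higher and 3 lower, where 13% and 15.4% of all genes were, with a median of 0.15. CCN1, CCN2 and ANKRD1, matrix and muscle proteins that are also known YAP targets, were called higher in both lines, where 1.31% of all CAL27 genes and 1.58% of all HSC3 genes were. CCN1 rose from 44.3 ± 2.95 to 164 ± 3.24 CPM in CAL27 cells and from 210.1 ± 20.2 to 857 ± 92.2 CPM in HSC3 cells (SD, n = 3), at log2 changes of 1.89 and 2.03 (edgeR adjusted p = 1.8e-16 and 2e-07). ANKRD1 rose by 1.62 and 4.19 and CCN2 by 1.07 and 1.81 in CAL27 and HSC3 cells. The rises of ANKRD1 started from low levels, 1.55 CPM with vehicle in CAL27 cells and 0.525 CPM in HSC3 cells. With DOX it was at 4.79 CPM in CAL27 and 9.4 CPM in HSC3 cells. TPM1, a tropomyosin, rose in HSC3 cells at 1.14 (edgeR adjusted p = 2.6e-07). The called falls were SYNPO2 in CAL27 cells at -1.58 (edgeR adjusted p = 4.5e-06) and FHL1 in HSC3 cells at -1.57 (edgeR adjusted p = 1.2e-07). Of all genes, 5.11% in CAL27 and 4.4% in HSC3 cells were called lower. The fitted fall of TNS1 in CAL27 cells, at -2.35, was larger than that of each tested member of the 3 lists, LIMS2 being next at -2.08.

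**Figure D4:**
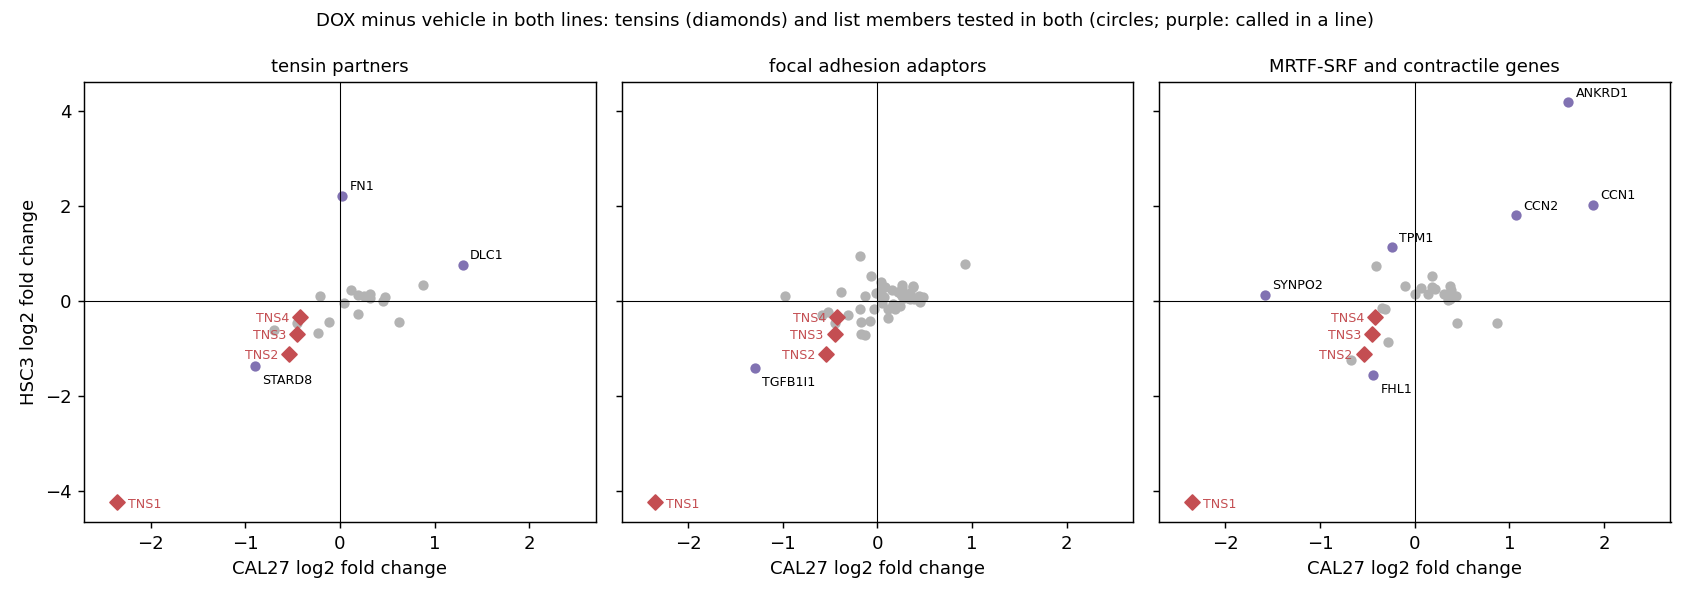
Log2 change with DOX in CAL27 cells (x axis) against HSC3 cells (y axis) for members of each list tested in both lines (circles, purple and named where called in a line) and for the 4 tensins (red diamonds). The tensins all lie below 0 on both axes, with TNS1 alone in the far corner, while CCN1, CCN2 and ANKRD1 lie at the upper right. The HSC3 position of TNS1 follows from the choice of the family.

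Genes whose profiles over the 12 libraries were most like each tensin were found by the distance between log2 CPM centred on the vehicle mean of each line, among 10946 genes. For TNS1 they were AKR1C2, a steroid and aldehyde reductase (distance 1.06), NPNT, the matrix protein nephronectin (1.93), and NGFR, the low-affinity neurotrophin receptor (2.18). AKR1C2 had log2 changes of -2.16 in CAL27 and -4.33 in HSC3 cells, NPNT -1.36 and -3.91, and NGFR -1.40 and -3.49. For TNS2 they were CYB5R2 (0.584), GALNT18 (0.644) and CELSR1 (0.679), which fell by 0.40 to 0.69 in CAL27 and by 1.10 to 1.25 in HSC3 cells. For TNS3 they were NFE2L1 (0.181), ABCD4 (0.203) and CDH3, P-cadherin (0.211). For TNS4 they were GPI (0.250), SHMT2 (0.251) and LINC00511 (0.252), with changes of -0.32 to -0.47 in CAL27 and -0.28 to -0.42 in HSC3 cells. The likeness rests on group differences shared by the same 12 libraries, and reads of AKR1C2 could have been split with its close paralogs. For TNS1 the likeness also rests on the HSC3 fall that chose the family, so its nearest genes are no support for that fall.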

How the data were processed

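RNA-seq was performed on 12 libraries of CAL27 and HSC3 cells, with 3 in each of 4 groups. The authors deposited whole-number counts per gene symbol without normalization, from TruSeq Stranded mRNA libraries aligned with STAR. The submitters' processing notes name STAR 2.7.9a, Subread 2.0.1 and featureCounts on GRCh38, and the strand setting, annotation and treatment of duplicated reads are not given in the sources used here. Without that setting, reads of a gene and its antisense partner could not be told apart. CAL27 DOX columns are numbered 4 to 6 and were mapped to their group only.

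Counts were analysed in R 4.3.3. The lines were fitted separately in edgeR 4.0.16 (TMM, filterByExpr with a minimum count of 10 and total of 15, robust glmQLFit, two-sided glmQLFTest, Benjamini-Hochberg adjustment over all genes tested). Genes were called at an adjusted p under 0.05 and a fold change above 2. Differences between lines came from 1 fit of all 12 libraries. Standard errors are the log2 fold change over the square root of F. Counts per molecule were estimated from genes expected at 8 to 16 counts that had none. No replicate pair held the same values (0.441% to 1.37% of genes equal). The fits were tested on simulated counts, drawn with a fixed dispersion and without repeated counts of a molecule. That test therefore does not cover the several counts per molecule of these libraries. For the difference between lines, a first simulation with changed genes drawn from all genes tested missed the minimum set for recovery, and the changed genes were then drawn from those above 1 CPM in both lines, so that check does not cover genes near 0 in a line. The members and lists were chosen with earlier results of these data known. Named were the tensins, MUC1, up to 4 called list members per direction and line, and the 3 nearest genes of each tensin. Exon lengths come from GENCODE v44 and promoters from RefSeq. Alternatives covered normalization, the filter, DESeq2 1.42.0, molecules, a shared fit, a block and left-out libraries.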

Additional observations from a re-analysis of the deposited data

Results flagged for a closer look

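TNS3 had a different response to DOX in the 2 lines by the interaction of line and DOX, with an HSC3 effect minus CAL27 effect of -0.24 on the log2 scale (edgeR adjusted p = 0.038). It was -0.22 with DESeq2 (DESeq2 adjusted p = 0.022), and its adjusted p ran from 0.022 to 0.14 over the alternatives. TNS3 fell in both lines, so the difference is one of size.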

How the results depend on the processing

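All alternatives kept the direction of each tensin in each comparison. The falls of TNS1 in CAL27 cells and of TNS3 in each line passed in all of theirs, and the untested HSC3 fall of TNS1 ran from -4.39 to -4.11. In 1 fit of all 12 libraries the CAL27 fall of TNS2 was -0.54 (edgeR adjusted p = 0.11). Leaving out single libraries gave HSC3 values of -1.47 to -0.82 for TNS2 and -0.38 to -0.25 for TNS4. For the difference between lines these were -0.91 to -0.26 for TNS2 and -0.27 to -0.18 for TNS3, which was -0.22 with DESeq2 size factors (edgeR adjusted p = 0.051) and -0.23 without the filter (edgeR adjusted p = 0.074). For HSC3 against CAL27 vehicle, TNS2 ran from -0.64 to -0.52 with single libraries left out. Its edgeR adjusted p of 0.034 rose above 0.05 without any 1 of the 6 vehicle libraries. Library totals gave 0.50 for TNS1, -0.86 for TNS2, -1.95 for TNS3 and 0.58 for TNS4 in that comparison. The TNS4 to TNS3 ratio in CAL27 cells ran from -0.0090 to 0.085, reversing without vehicle replicate 2 (-0.0090) or DOX library 6 (-0.0070).

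With a fold change above 1.5, focal adhesion adaptors had 3 calls lower and 1 higher in CAL27 and 2 lower and 2 higher in HSC3 cells. Partners had 1 lower and 3 higher in CAL27 and 3 lower and 2 higher in HSC3 cells. Contractile genes had 2 lower and 4 higher in each line. The share of all genes called at that fold change is not given here, so these counts cannot be set against it. DESeq2 called 0 partners higher in CAL27 cells. With libraries left out, calls ran from 1 to 2 for adaptors lower in CAL27, 1 to 2 for adaptors lower in HSC3, 0 to 1 for partners higher in CAL27, 0 to 1 for partners lower in HSC3 and 1 to 2 for contractile genes lower in CAL27 cells.

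With the replicate block in HSC3 cells, TNS1 was -4.25, TNS2 -1.21 (edgeR adjusted p = 0.018), TNS3 -0.69 and TNS4 -0.34 (edgeR adjusted p = 0.019), and 753 genes were called lower against 793 without it. Same-numbered libraries had correlations of -0.019, 0.052 and -0.0010, so no variation shared by number was seen. These values cannot tell whether the cultures were paired. No paired analysis was possible in CAL27 cells because the DOX columns carry no replicate number of the labels. Molecules limit TNS1 and TNS2 in HSC3 DOX libraries more than counts do.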
